A study of Mus musculus with 3 samples.

Results

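The genes described here encode 6 ligands of the transforming growth factor beta (TGF-beta) superfamily, Tgfb1, Tgfb2, Tgfb3, Bmp3, Bmp4 and Bmp7, and 4 of its receptors, Tgfbr1, Tgfbr2, Tgfbr3 and Bmpr1a. They were chosen by name and are 10 of the 19050 gene symbols in the count tables, and all 10 are present in each table. They were measured by droplet single-cell RNA sequencing in 3 libraries of mammary epithelial cells from female FVB/NJ mice aged 10 weeks. Per the labels, the number 4 glands of 4 such mice were pooled, digested to single cells and sorted for live epithelium using a panel of CD49f, EpCAM, CD31, CD45 and Ter119 antibodies and a dye for dead cells. The same text stands for each library, so the sources used here do not say whether the libraries came from separate pools of mice, and every p-value below reflects spread among 3 libraries that may be technical replicates. The labels give no genotype, dose or time to compare, and the comparisons are between the 3 epithelial cell classes within the same libraries.

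Classes were set per cell from sums of unique molecular identifiers (UMIs, one per captured transcript molecule). Basal-like cells carried most UMIs of Krt5, Krt14 and Acta2, luminal progenitor-like (LP-like) cells of Csn3, Elf5, Kit and Aldh1a3, and hormone-responsive-like (HR-like) cells of Prlr, Areg, Pgr and Esr1, with at least 5 UMIs in the top sum and at least 3 times each other sum. Of 24352 cells kept, 9758 were basal-like, 7962 LP-like and 2527 HR-like, and 4105 (16.9%) had no class. Median depths were 1968.5, 3213.5 and 3527 UMIs per cell in basal-like, LP-like and HR-like cells. Each of 18 further markers that the rule did not use, such as Trp63 for basal, Ehf for luminal progenitor and Foxa1 for hormone-responsive cells, had its highest mean level in the class it is known for. The markers were chosen with earlier results of these data known, so this is not an independent check of the classes. Of the 18, Lcn2 was also high outside its class, at 1238 CPM (UMI counts scaled to the same total in every sum) in basal-like and 2537 CPM in LP-like cells.

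The libraries held 18584156, 27220670 and 30984706 UMIs and differed in makeup. In library 1, 24.9% of cells were basal-like and 51.6% LP-like, against 52.4% and 19.8% in library 2 and 39.0% and 32.1% in library 3. The milk protein gene Csn2 stood at 167 CPM in LP-like cells of library 1, against 9737 and 5717 CPM in those of libraries 2 and 3. The HR-like class of library 1 held 343 cells, against 977 and 1207 in libraries 2 and 3, which makes its levels the least precise. Libraries shared 77 to 146 cell barcodes in pairs.

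TGF-beta ligands are secreted in a latent complex and, once released, bind a type II receptor (TGFBR2), which recruits and activates the type I receptor kinase TGFBR1; TGFBR3, also called betaglycan, is a co-receptor that presents ligand. Bone morphogenetic proteins (BMPs) also signal through type II and type I receptors, BMPR1A being a type I receptor, and both branches end in Smad transcription factors. In the mammary gland TGF-beta is known as an inhibitor of ductal growth and of milk secretion, and BMP signalling takes part in bud and duct formation.

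Promoter sequences, the 250 bases before the annotated start, are shown for a ligand pair and a receptor pair whose members were highest in different classes. They are from RefSeq, build GRCm38.p6, which held an entry for 6 of the 10 genes, and run 5′ to 3′ on the gene's strand. Capitals mark a TATA box (TATAAA) or a GC box (GGGCGG, or CCGCCC on the other strand); the 2 motifs were searched on both strands and share no position here. The lines give Tgfb1 (chr7:25686752-25687001, + strand), Tgfb2 (chr1:186705990-186706239, − strand), Tgfbr1 (chr4:47352972-47353221, + strand) and Tgfbr2 (chr9:116175364-116175613, − strand).
Tgfb1: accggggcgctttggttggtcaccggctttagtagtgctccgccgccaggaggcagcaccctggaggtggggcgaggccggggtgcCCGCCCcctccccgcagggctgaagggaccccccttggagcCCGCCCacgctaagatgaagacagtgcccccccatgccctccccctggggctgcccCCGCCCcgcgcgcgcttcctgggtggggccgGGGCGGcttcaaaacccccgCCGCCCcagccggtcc
Tgfb2: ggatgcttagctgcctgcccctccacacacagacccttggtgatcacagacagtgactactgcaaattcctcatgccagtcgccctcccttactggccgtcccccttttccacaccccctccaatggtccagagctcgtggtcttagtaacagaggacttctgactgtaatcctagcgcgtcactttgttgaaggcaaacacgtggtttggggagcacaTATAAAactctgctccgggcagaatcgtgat
Tgfbr1: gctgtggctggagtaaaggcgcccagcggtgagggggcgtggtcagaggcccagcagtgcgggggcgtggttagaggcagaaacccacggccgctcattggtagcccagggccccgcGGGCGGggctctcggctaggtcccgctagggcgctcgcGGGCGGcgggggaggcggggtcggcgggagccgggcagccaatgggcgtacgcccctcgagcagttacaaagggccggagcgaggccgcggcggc
Tgfbr2: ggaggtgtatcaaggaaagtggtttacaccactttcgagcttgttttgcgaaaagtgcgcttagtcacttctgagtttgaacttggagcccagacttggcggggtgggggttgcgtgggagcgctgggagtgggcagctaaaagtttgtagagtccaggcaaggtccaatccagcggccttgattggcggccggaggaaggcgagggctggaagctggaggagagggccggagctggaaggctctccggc
The Tgfb1 window held 5 GC boxes and no TATAAA, at a base composition of 75.2% G and C. The Tgfb2 window held TATAAA with its first base 31 bases before the start and no GC box, at 53.6% G and C. Its 250 bases also held the Smad-binding letters CAGACA once, 204 bases before the start, which the other 3 windows printed lack on either strand. The Tgfbr1 window held 2 GC boxes, at 74.8% G and C; RefSeq also lists a second Tgfbr1 start, whose window (chr4:47385966-47386215, + strand, 52.8% G and C, not printed) held no GC box or TATAAA and held CAGACA 203 bases before that start. The Tgfbr2 window held none of the 3 motifs, at 58.4%. Of 32851 promoter windows of the same length, 12.4% held TATAAA, 32.7% the GC box and 17.1% CAGACA. A match is a description of the letters and not a site of binding.

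Levels are CPM of UMI sums per library and class, scaled with TMM factors, and values of single libraries stand in the order of libraries 1, 2 and 3. Differences are fitted log2 fold changes from edgeR, ± the SD over libraries of the log2 ratio taken inside each library (n = 3), and a gene was called at an adjusted p below 0.05 and a log2 fold change of 1 or more in either direction. Between basal-like and LP-like cells 31.3% of the 12666 genes tested and 7 of the 10 genes were called. Between basal-like and HR-like cells 35.9% of all genes and again 7 of the 10 were called, and between LP-like and HR-like cells 24.5% and 7. By direction, 17.3% of all genes and 5 of the 10 were higher in basal-like than in LP-like cells, and 14.0% and 2 lower. Against HR-like cells, 20.7% of all genes and 5 of the 10 were higher in basal-like cells, and 15.2% and 2 lower. Bmp4 is among the genes higher in basal-like cells in each of these comparisons, and it passed the filter on low counts only through that class. In LP-like against HR-like cells 14.1% and 4 were higher, and 10.4% and 3 lower. The median log2 difference of the 10 genes was 0.79, 1.33 and −0.19 in the 3 comparisons, beside −0.08, −0.0022 and 0.06 over all genes tested. The 9 sums are compared in pairs, so each class serves in 2 comparisons.

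**Figure D1:**
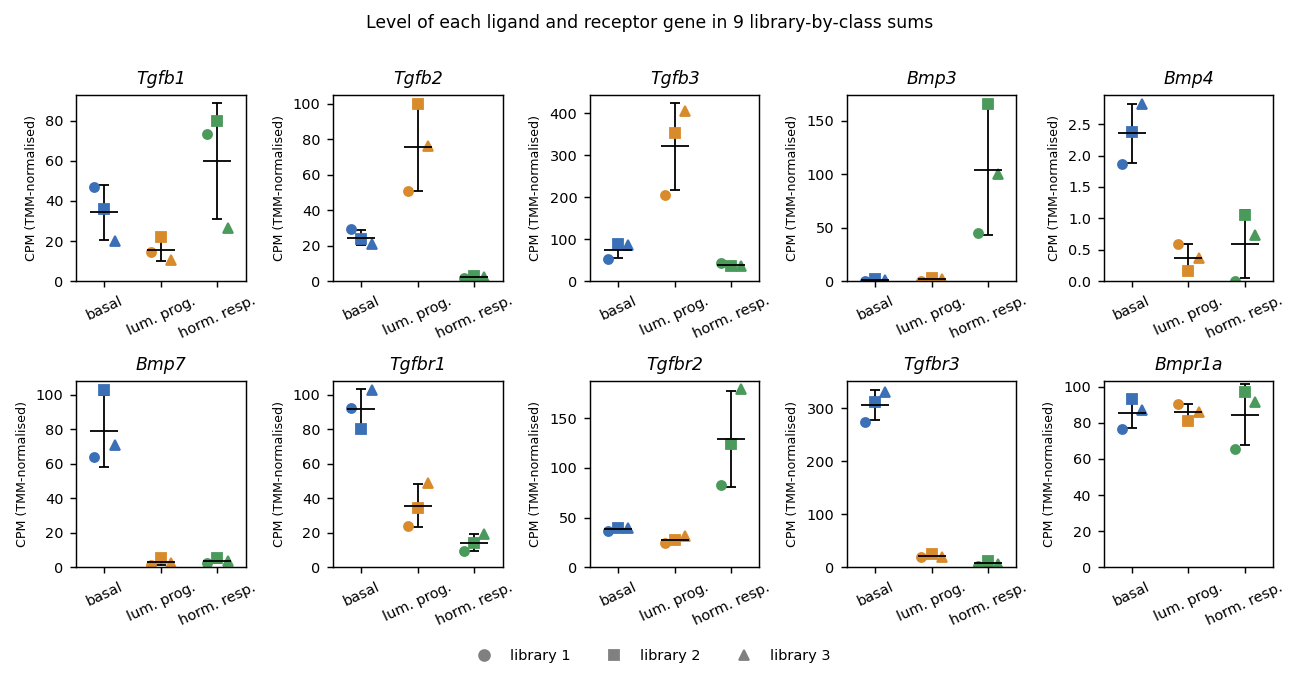
Level of each gene in CPM (TMM-normalised, linear axes that differ between panels) in basal-like, LP-like and HR-like cells; points are libraries, the long bar is the mean and whiskers are the SD of 3 libraries. Tgfb2 and Tgfb3 sit highest in LP-like cells, Bmp7, Tgfbr1 and Tgfbr3 in basal-like cells, Bmp3 and Tgfbr2 in HR-like cells, and the points of Bmpr1a overlap between 65.4 and 96.8 CPM.

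The 3 TGF-beta ligands were each highest in a luminal class, Tgfb2 and Tgfb3 in LP-like cells and Tgfb1 in HR-like cells. Tgfb3 (chr12:86056745-86079041, − strand, GENCODE annotation of mm10), the isoform best known in the mammary gland for milk stasis and involution, had 51.4, 87.8 and 84.9 CPM in basal-like cells, 205, 353 and 405 CPM in LP-like cells and 43.3, 34.8 and 36.5 CPM in HR-like cells. Every LP-like value lay above every value of the other classes. Tgfb3 was lower in basal-like than in LP-like cells (log2 −2.09 ± 0.15, adjusted p = 5.4e-05) and higher in LP-like than in HR-like cells (3.06 ± 0.67, adjusted p = 1.5e-05). Basal-like cells averaged 74.7 ± 20.2 CPM and HR-like cells 38.2 ± 4.5 CPM (SD, n = 3 each), a difference of 0.97 ± 0.59 (adjusted p = 0.0057) that fell just short of the fold needed for a call and passed it at 1.33 without library 1, and at 1.02 to 1.05 under other size factors, with DESeq2, with no filter on low counts and with sums thinned to equal totals. HR-like cells held 14.6% of the LP-like Tgfb3 level.

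Tgfb2 (chr1:186622792-186705989, − strand), whose product depends on betaglycan for efficient receptor binding, followed the same order of classes. Its levels were 29.3, 23.4 and 20.9 CPM in basal-like cells, 50.5, 99.6 and 76.3 CPM in LP-like cells and 1.47, 2.64 and 2.19 CPM in HR-like cells. No value of one class overlapped with those of another. Basal-like cells were below LP-like cells (log2 −1.61 ± 0.69, adjusted p = 0.00036) and above HR-like cells (3.46 ± 0.58, adjusted p = 5.3e-05), and LP-like cells were 33.6-fold above HR-like cells (5.07 ± 0.12, adjusted p = 6.4e-06). The HR-like level was 3.09% of the LP-like one. Of 6 luminal progenitor markers that the class rule did not use, HR-like cells held between 1.08% (Wap) and 6.21% (Ehf) of the LP-like level, so the HR-like Tgfb2 level lies within the range of these markers; the part of free RNA in it was not tested, and the folds are against that level.

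Tgfb1 (chr7:25687002-25705077, + strand), the most studied isoform, ran in a different order, with 47.1, 36.0 and 19.9 CPM in basal-like cells, 14.3, 22.0 and 10.6 CPM in LP-like cells and 73.4, 79.9 and 26.5 CPM in HR-like cells. Library 3 was lowest in every class, and basal-like levels overlapped across libraries with those of HR-like and of LP-like cells. Within each library HR-like cells were above basal-like cells, and basal-like cells above LP-like cells. LP-like cells were below HR-like cells (log2 −1.85 ± 0.52, adjusted p = 0.00024). Basal-like cells were above LP-like cells (1.10 ± 0.53, adjusted p = 0.0029), a call that did not hold without library 1 (0.84, adjusted p = 0.0017, under the fold needed), without the library block (adjusted p = 0.060) and under a stricter class rule (0.99). Between basal-like and HR-like cells the difference was −0.76 ± 0.38 (adjusted p = 0.016), too small for a call.

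The 3 BMP ligands were each highest in another class than Tgfb2 and Tgfb3. Bmp7 (chr2:172868012-172940321, − strand), an activator of BMP receptors, had 63.9, 103 and 70.8 CPM in basal-like cells, 1.48, 5.31 and 2.71 CPM in LP-like cells and 2.20, 5.54 and 3.90 CPM in HR-like cells. All basal-like values lay far above the luminal ones, 26.6-fold over LP-like cells (log2 4.73 ± 0.49, adjusted p = 5.4e-07) and 20.1-fold over HR-like cells (4.33 ± 0.33, adjusted p = 1.4e-06). The 2 luminal classes overlapped (−0.40 ± 0.25, adjusted p = 0.30). LP-like and HR-like cells held 3.65% and 5.10% of the basal-like Bmp7 level. Of 6 basal markers outside the class rule, Trp63, Myh11, Mylk, Cnn1 and Krt17 stood at 1.37% to 2.96% in the luminal classes, and Oxtr at 12.8% in LP-like and 2.45% in HR-like cells. The part of free RNA in the luminal Bmp7 UMIs was not tested.

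Bmp3 (chr5:98854415-98884396, + strand), a BMP known as an inhibitor of other BMPs in bone, had 0, 2.28 and 1.27 CPM in basal-like cells, 0.492, 2.97 and 2.33 CPM in LP-like cells and 44.8, 166 and 100.3 CPM in HR-like cells. The HR-like values varied widely, with library 1 lowest, and still lay above all others. Basal-like cells were 81.8-fold below HR-like cells (log2 −6.35 ± 0.68, adjusted p = 5.6e-07) and LP-like cells 53.9-fold below them (−5.75 ± 0.29, adjusted p = 6.8e-07). Basal-like and LP-like cells held 0.840% and 1.58% of the HR-like level. Hormone-responsive markers outside the class rule stood at 0.345% (Tnfsf11) to 3.03% (Wnt4) in basal-like and 0.548% (Tnfsf11) to 4.65% (Wnt4) in LP-like cells, a range that holds both Bmp3 shares. The part of free RNA in them was not tested, and the folds are against those levels. The difference between basal-like and LP-like cells was −0.60 ± 0.51 (adjusted p = 0.19).

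Bmp4 (chr14:46383520-46390669, − strand), a ligand of embryonic mammary bud formation, was near the limit of detection, with 51, 11 and 7 UMIs in all basal-like, LP-like and HR-like cells. Its levels were 1.87, 2.37 and 2.82 CPM in basal-like cells, 0.591, 0.156 and 0.373 CPM in LP-like cells and 0, 1.06 and 0.731 CPM in HR-like cells. Basal-like values were the highest in each library. The difference was 2.53 ± 0.64 over LP-like cells (adjusted p = 0.0042) and 1.69 ± 0.93 over HR-like cells (adjusted p = 0.044). Bmp4 passed the filter on low counts only through its basal-like levels, so these p-values are descriptions. The call over HR-like cells did not hold with DESeq2 (adjusted p = 0.070), with no filter on low counts (0.053) or with doublets kept (0.14). Without library 2 the adjusted p became 0.053 and 0.116, and without library 3 or without cells carrying markers of other cell types Bmp4 did not pass the filter on low counts. Bmp4 stood at 72.3 CPM in the 69 endothelial-like cells of these libraries, whose markers summed to 5.79 to 18.4 CPM in the basal-like class; their part in the Bmp4 difference was not tested.

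The 3 TGF-beta receptors divided between classes. Tgfbr1 (chr4:47353222-47414931, + strand), the signalling type I kinase, had 92.2, 80.1 and 103 CPM in basal-like cells, 23.8, 34.2 and 48.7 CPM in LP-like cells and 9.55, 14.0 and 19.2 CPM in HR-like cells. The classes did not overlap and kept this order in each library. Basal-like cells were 2.66-fold above LP-like cells (log2 1.41 ± 0.46, adjusted p = 0.00018) and 6.41-fold above HR-like cells (2.68 ± 0.45, adjusted p = 8.6e-06), and LP-like cells 2.41-fold above HR-like cells (1.27 ± 0.03, adjusted p = 0.0012).

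Tgfbr2 (chr9:116084293-116175360, − strand), the ligand-binding type II kinase, was highest where Tgfbr1 was lowest. It had 36.8, 39.8 and 39.3 CPM in basal-like cells, 24.7, 27.3 and 31.6 CPM in LP-like cells and 83.0, 124 and 179 CPM in HR-like cells. The HR-like values were above all others in every library. Basal-like cells were 3.26-fold below HR-like cells (log2 −1.71 ± 0.51, adjusted p = 6.2e-05) and LP-like cells 4.53-fold below them (−2.18 ± 0.38, adjusted p = 2.4e-05). Basal-like values were above LP-like ones in all 3 libraries, by 0.47 ± 0.14 (adjusted p = 0.051), which missed both thresholds.

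Tgfbr3 (chr5:107106570-107289629, − strand), betaglycan, had 274, 312 and 330.3 CPM in basal-like cells, 19.1, 25.3 and 19.5 CPM in LP-like cells and 2.94, 11.9 and 6.82 CPM in HR-like cells. The classes did not overlap, and the basal-like values were 14.5-fold above LP-like ones (log2 3.85 ± 0.23, adjusted p = 1.4e-06) and 40.0-fold above HR-like ones (5.32 ± 0.86, adjusted p = 7.2e-07). LP-like cells were above HR-like cells (1.47 ± 0.78, adjusted p = 0.0017). The HR-like level was 2.44% of the basal-like one, inside the 1.37% to 2.94% at which the 6 basal markers stood there; the part of free RNA in it was not tested. The LP-like level was 6.84%, above 5 of the 6 markers and below Oxtr. Exons of Tgfbr3 overlap those of the predicted gene Gm43422 on the same strand, which has no row in the tables. How reads of the shared stretch were counted was not tested.

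Bmpr1a (chr14:34410734-34503341, − strand), a type I receptor for BMPs, was at 76.4, 93.0 and 87.3 CPM in basal-like cells, 90.4, 81.2 and 86.1 CPM in LP-like cells and 65.4, 96.8 and 91.3 CPM in HR-like cells. The classes overlapped fully. Differences were −0.02 ± 0.22 (adjusted p = 0.93), 0.01 ± 0.16 (adjusted p = 0.96) and 0.03 ± 0.38 (adjusted p = 0.90) between basal-like and LP-like, basal-like and HR-like, and LP-like and HR-like cells. Over all alternatives of processing they lay between −0.12 and 0.16, −0.0087 and 0.09, and −0.17 and 0.18.

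**Figure D2:**
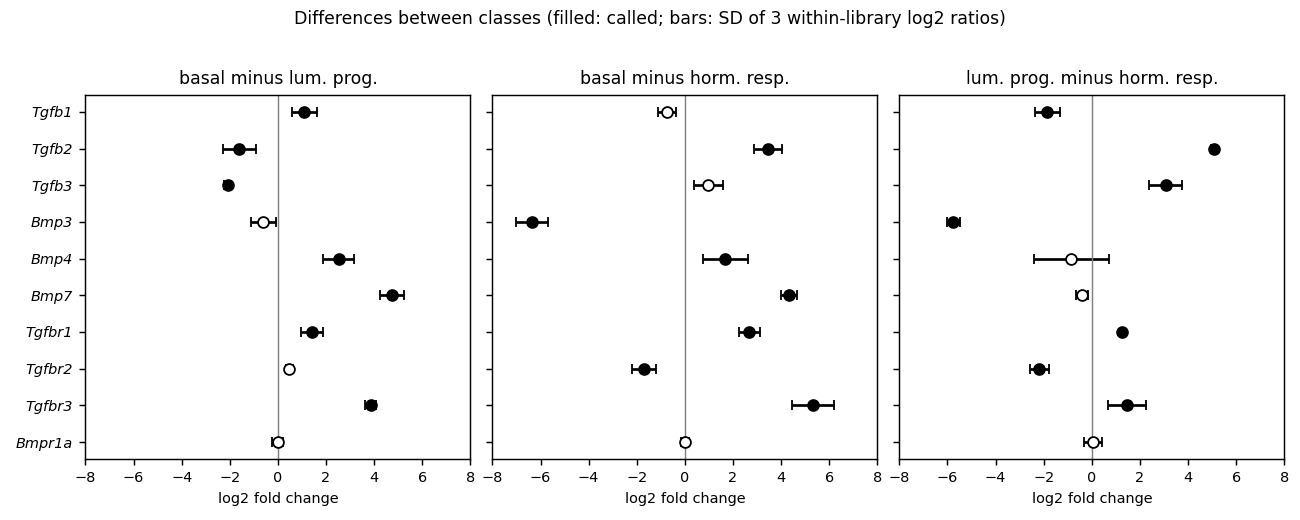
Fitted log2 fold change of each gene in the 3 comparisons (first class minus second), filled where called; bars are the SD of 3 within-library log2 ratios. Tgfb2 and Tgfb3 lie left of 0 in basal-like minus LP-like cells and right of 0 in LP-like minus HR-like cells, and Tgfbr2 lies at −1.71 and −2.18 in the comparisons with HR-like cells, where Tgfbr1 lies at 2.68 and 1.27.

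Detection per cell was compared after drawing each cell down to 1000 UMIs, since the classes differ in depth; this left out cells with fewer UMIs, 41, 112 and 154 basal-like, 48, 13 and 22 LP-like and 0, 6 and 13 HR-like cells. Tgfbr3 then had a UMI in 25.5 ± 3.03% of basal-like, 2.18 ± 0.73% of LP-like and 0.732 ± 0.475% of HR-like cells (SD, n = 3). Tgfb3 was found in 7.02 ± 1.53%, 26.5 ± 8.04% and 3.98 ± 0.35% of these classes. Without thinning the shares were 44.3%, 7.01% and 2.56% for Tgfbr3 and 14.0%, 57.5% and 11.8% for Tgfb3. Absence of a UMI in 1 cell at this depth does not show absence of the transcript.

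Among the less often detected genes after thinning, Bmp7 was found in 6.92 ± 1.44%, 0.343 ± 0.240% and 0.208 ± 0.209% of basal-like, LP-like and HR-like cells, and Bmp3 in 0.113 ± 0.133%, 0.228 ± 0.178% and 8.54 ± 5.02%. Tgfbr2 stood at 3.67 ± 0.13%, 2.68 ± 0.24% and 11.6 ± 4.88%, Tgfbr1 at 9.05 ± 0.65%, 3.29 ± 1.14% and 0.971 ± 0.652%, and Tgfb2 at 2.67 ± 0.59%, 6.67 ± 2.09% and 0.165 ± 0.218%. Bmpr1a was found in 8.38 ± 1.09%, 7.75 ± 0.17% and 8.51 ± 1.82%. Tgfb1 stood at 3.35 ± 1.03%, 1.47 ± 0.51% and 5.70 ± 3.00%, and Bmp4 at or under 0.247% in each class. The shares thus ran in the same order of classes as the CPM for 8 of these 10 genes, the exceptions being Bmp7, where the luminal classes changed places within their SD, and Bmpr1a.

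**Figure D3:**
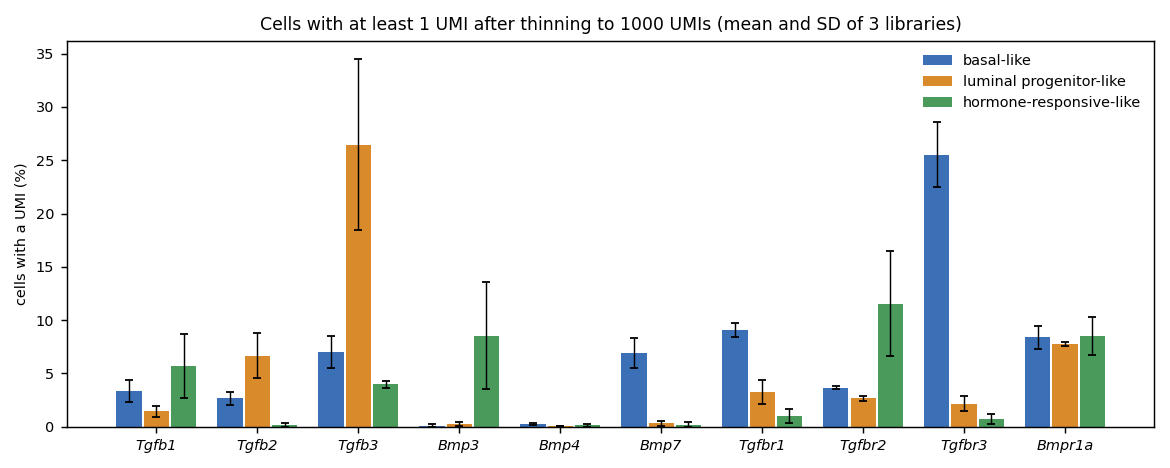
Share of cells with at least 1 UMI of each gene after drawing every cell down to 1000 UMIs, in basal-like, LP-like and HR-like cells; bars are means and whiskers SDs of 3 libraries. Tgfbr3 in basal-like cells (25.5%) and Tgfb3 in LP-like cells (26.5%) stand out, Bmp3 and Bmp7 are near 0 outside the class where they are highest, and Bmp4 is near 0 in each.

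Detection of 2 genes in the same cell was compared within a class after thinning, as a description. In LP-like cells Tgfb2 was found in 4.20%, 8.66% and 6.06% of cells with a Tgfb3 UMI and in 4.71%, 8.87% and 6.82% of cells without one. In basal-like cells Bmp7 was found in 5.28%, 8.94% and 6.36% of cells with a Tgfbr3 UMI and in 5.65%, 8.25% and 6.90% of cells without one. Tgfbr1 was found in 9.63%, 8.50% and 9.39% of those with and in 9.19%, 8.25% and 9.63% of those without. In HR-like cells Bmp3 was found in 0, 18 and 19 of 21, 126 and 186 cells with a Tgfbr2 UMI (0%, 14.3% and 10.2%), against 4.04%, 13.7% and 7.64% of cells without one. The higher share was on different sides in different libraries for 3 of these pairs, while Tgfb2 was slightly lower in cells with Tgfb3 in each library.

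Cells of other types were few after the sort and are described apart. At least 3 markers of 1 type only were found in 163 fibroblast-like, 69 endothelial-like, 32 pericyte-like and 12 immune-like cells (a cell can also carry an epithelial class). Summed over libraries, with exact Poisson intervals that cover counting error only, Tgfbr2 stood at 471 CPM of all UMIs (95% interval 403 to 547, 172 UMIs) in fibroblast-like cells, against 38.8, 26.8 and 149 in basal-like, LP-like and HR-like cells. Tgfbr3 was at 323 (268 to 387) in fibroblast-like and 159 (99.7 to 241) in endothelial-like cells, beside 309.6 in basal-like cells. Bmp4 stood at 72.3 (34.7 to 133, 10 UMIs) in endothelial-like and 16.4 (6.03 to 35.8, 6 UMIs) in fibroblast-like cells, against 2.42 in basal-like cells. Tgfb1 was at 101 (55.3 to 170, 14 UMIs) in endothelial-like cells, but with 8, 6 and 0 UMIs in libraries 1, 2 and 3. Immune-like and pericyte-like cells were too few for more than counts of 11 UMIs or fewer per gene.

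**Figure D4:**
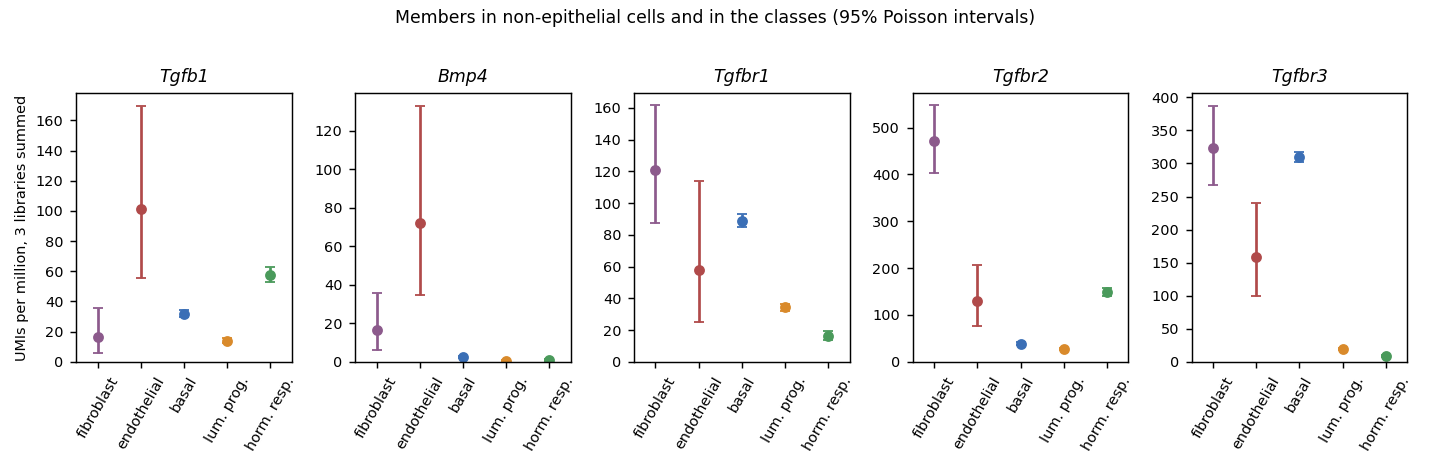
CPM of 5 of the genes in fibroblast-like and endothelial-like cells and in the 3 epithelial classes, summed over 3 libraries, with 95% Poisson intervals. Tgfbr2 is highest in fibroblast-like cells (471) and Bmp4 in endothelial-like cells (72.3), while Tgfbr3 is at 323 in fibroblast-like and 309.6 in basal-like cells.

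Markers of those cell types were also looked for within the classes. The 6 fibroblast genes summed to 100.4 to 328 CPM in basal-like, 17.5 to 41.0 CPM in LP-like and 152 to 192 CPM in HR-like cells, and all 6 had UMIs in each class; Dcn made up most of it in basal-like (180 CPM) and HR-like cells (167 CPM), where the collagen genes averaged 23.6 CPM or less. The 6 endothelial genes summed to 5.79 to 18.4, 6.45 to 9.71 and 3.87 to 4.99 CPM, with Emcn and Tie1 at 0 in HR-like cells. The 6 pericyte genes summed to 32.3 to 37.5, 79.4 to 91.3 and 72.2 to 106 CPM, mostly Notch3 in the luminal classes, with Kcnj8 at 0 in both luminal classes and Abcc9 at 0 in HR-like cells. The 6 immune genes summed to at most 5.21, 3.23 and 3.25 CPM, with Cd3e at 0 in HR-like cells, the 4 adipocyte genes to at most 1.51, 0.169 and 0 CPM, and the 4 Schwann cell genes to 14.2 to 16.2, 35.3 to 46.5 and 22.1 to 33.5 CPM, mostly Mbp in the luminal classes. With cells carrying 3 markers of fibroblast, endothelial, pericyte or immune cells left out, Tgfbr3 was higher in basal-like than in LP-like cells (log2 3.87) and Tgfbr2 lower in basal-like than in HR-like cells (log2 −1.73). Of 9758 basal-like cells, only 24, 6, 22 and 1 carried markers of these types, so leaving them out could change little for genes with many UMIs. Bmp4, with 51 UMIs in basal-like cells, did not pass the filter on low counts with such cells left out. The part of free RNA of other cell types was not tested.

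Further subsets of the LP-like class were set apart, with no test. In 380 dividing cells (at least 2 of 6 mitotic genes detected) Tgfb3 was at 128, 136 and 229 CPM, against 206, 372 and 379.7 in the other cells of the class, lower in all 3 libraries. Tgfb2 was at 51.1, 94.6 and 66.7 in dividing cells, against 50.3, 98.4 and 69.1 in the others, and Tgfb1 at 7.30, 7.39 and 2.74, against 14.4, 23.3 and 10.3, from 10 UMIs in all in dividing cells. In cells with at least 1% of UMIs from Csn2, of which library 1 held only 15, Tgfb2 stood at 121 and 84.7 in libraries 2 and 3, against 84.2 and 65.2 in the cells with less Csn2. Tgfb3 went opposite ways in these libraries, at 294 and 404 in the cells with more Csn2, against 380.3 and 357 in those with less. Cells with no class had levels between those of the classes for all genes but Bmp4 and Bmpr1a, such as 62.7 CPM for Tgfbr3 and 197 for Tgfb3.

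Counts were made over 8 lists of other genes of the pathway, 109 of whose 118 distinct genes are in the tables, and are set beside the shares and medians over all genes tested. The lists were chosen with earlier results of these data known. A gene can also pass the filter on low counts through the class where it is high, so the counts are descriptions. The lists overlap: Smad6 and Smad7 are on the Smad and BMP response lists and Bambi on the co-receptor and BMP response lists. Ltbp2 is on the latency and TGF-beta response lists. Extracellular antagonists and binders, several of which hold ligand away from receptors, were mostly higher in basal-like cells where tested. Of 18 listed, 17 are in the tables and 10 were tested. All 10 were higher in basal-like than in LP-like cells, beside 17.3% of all genes. Against HR-like cells 9 of 10 were higher in basal-like cells, beside 20.7% of all genes. The medians were 4.46 and 4.14, beside −0.08 and −0.0022 over all genes. Fst (follistatin, an activin and BMP binder) averaged 267 ± 137, 3.68 ± 1.15 and 7.37 ± 2.68 CPM (SD, n = 3) in basal-like, LP-like and HR-like cells. Bgn (biglycan) averaged 287, 5.12 and 5.997 CPM, and Fstl1 (a follistatin-like glycoprotein) 268, 5.34 and 2.88 CPM. The exception against HR-like cells was Dcn (decorin, a TGF-beta binding proteoglycan), with 183 and 158 CPM in basal-like and HR-like cells and 8.96 CPM in LP-like cells. Dcn is also a fibroblast marker, and the fibroblast list summed to 100.4 to 328 CPM in basal-like and 17.5 to 41.0 CPM in LP-like cells; the part of those cells, and of free RNA in the low luminal levels, was not tested for any of the 8 lists. In LP-like against HR-like cells, beside 14.1% higher and 10.4% lower of all genes, 1 was higher, Sostdc1 (a BMP antagonist, 2.94 and 1.28 CPM), and 3 were lower, among them Dcn (log2 −4.43 ± 1.86, adjusted p = 0.00029) and Nbl1 (a BMP antagonist, −2.997 ± 1.37, adjusted p = 0.0015).

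Genes known to respond to TGF-beta showed a like split. Of 16 tested, 14 were higher and 0 lower in basal-like than in LP-like cells, beside 17.3% and 14.0% of all genes (median 2.87 beside −0.08). Against HR-like cells 13 were higher and 0 lower, beside 20.7% and 15.2% (median 3.20 beside −0.0022). Snai2 (a repressor of epithelial genes) averaged 88.9, 1.54 and 0.772 CPM in basal-like, LP-like and HR-like cells, Tgfb1i1 (a focal adhesion protein, also known as Hic-5) 161, 4.80 and 3.20 CPM, and Ctgf (a matricellular protein) 402, 24.8 and 6.78 CPM. Several of these genes are also known as genes of contractile and matrix-producing cells. In LP-like against HR-like cells 4 were higher and 1 lower, beside 14.1% and 10.4% of all genes (median 0.60 beside 0.06), among them Cyr61 (762 and 141 CPM) and Timp3 (37.4 and 9.21 CPM) on the higher side and Tsc22d1 (219.7 and 639.5 CPM) on the lower.

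Genes known to respond to BMPs went both ways. Of 14 tested, 7 were higher and 2 lower in basal-like than in LP-like cells, beside 17.3% and 14.0% of all genes (median 1.26 beside −0.08), so the share lower was near that of all genes. Against HR-like cells 10 were higher and 3 lower in basal-like cells, beside 20.7% and 15.2% (median 2.22 beside −0.0022). Smad6, Smad7 and Bambi, higher in basal-like cells in each of these comparisons, are counted again among the Smads or the co-receptors. In LP-like against HR-like cells 6 were higher and 3 lower, beside 14.1% and 10.4% (median 0.83 beside 0.06). The Id genes, inhibitors of differentiation, differed among themselves. Id4 averaged 151, 2.92 and 2.23 CPM in basal-like, LP-like and HR-like cells, and Id3 116, 9.95 and 306 CPM. Id1 averaged 19.9, 24.3 and 4.62 CPM and Id2 141, 253 and 24.1 CPM. Neither Id1 nor Id2 was called between basal-like and LP-like cells, and both were lower in HR-like cells than in the other classes. Msx2 (a homeobox factor) averaged 1.26, 0.839 and 78.7 CPM, lower in basal-like (log2 −5.75 ± 0.70, adjusted p = 3.4e-07) and LP-like cells (−6.50 ± 0.17, adjusted p = 2.4e-07) than in HR-like cells. Hey1 (a transcriptional repressor that Notch also induces) averaged 6.37, 116 and 3.53 CPM and Gata3 (a luminal lineage factor) 162, 339 and 607 CPM. Atoh8 and Dlx3, both transcription factors, had 1 UMI each in all HR-like cells, beside 151 and 91 UMIs in basal-like and 8 and 70 in LP-like cells.

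Smads and their partners were called in 1 direction. Of 16 tested, 7 were higher and 0 lower in basal-like than in LP-like cells, beside 17.3% and 14.0% of all genes (median 0.55 beside −0.08). Against HR-like cells 8 were higher and 0 lower, beside 20.7% and 15.2% (median 1.01 beside −0.0022). In LP-like against HR-like cells 1 was higher and 0 lower, a smaller share than the 14.1% and 10.4% of all genes (median 0.11 beside 0.06). Smad1, a mediator of BMP signals, averaged 91.9 ± 26.2, 18.6 ± 1.20 and 23.2 ± 2.98 CPM in basal-like, LP-like and HR-like cells (SD, n = 3). Tgif2, a corepressor, averaged 84.0, 25.5 and 15.6 CPM, and Zfyve9, the receptor anchor SARA, 24.0, 17.8 and 8.48 CPM. Smad9 had 47, 8 and 2 UMIs in these classes.

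Among the proteins that keep TGF-beta latent or activate it, 6 of 12 were higher and 3 lower in basal-like than in LP-like cells, beside 17.3% and 14.0% of all genes (median 1.11 beside −0.08). Against HR-like cells 5 were higher and 0 lower in basal-like cells, beside 20.7% and 15.2% (median 1.00 beside −0.0022), and 6 were higher and 2 lower in LP-like cells, beside 14.1% and 10.4% (median 0.83 beside 0.06). Basal-like cells carried more of the microfibril protein Fbn1 (115, 3.69 and 2.38 CPM in basal-like, LP-like and HR-like cells), of the latent TGF-beta binding protein Ltbp4 (103, 5.61 and 4.85 CPM) and of the activator Thbs1 (1156, 254 and 29.4 CPM). LP-like cells, where Tgfb2 and Tgfb3 were highest, carried more of Ltbp1 (7.35, 48.8 and 11.2 CPM) and of Lrrc32, also known as GARP, which tethers latent TGF-beta to the cell surface (1.22, 22.4 and 0.570 CPM). Both were lower in basal-like than in LP-like cells, Ltbp1 by log2 −2.68 ± 0.25 (adjusted p = 2.6e-05) and Lrrc32 by −4.06 ± 0.46 (adjusted p = 8.0e-06). Of the other latent TGF-beta binding proteins, Ltbp2 averaged 325, 34.3 and 9.54 CPM. Ltbp3 averaged 256, 196 and 190 CPM and was called in no comparison. Itgb8, an integrin subunit that frees TGF-beta, averaged 43.6, 51.8 and 2.01 CPM, and Bmp1 (a matrix protease) and Itgav (the partner subunit of Itgb8) averaged 79.5, 14.0 and 67.7 CPM and 205, 56.9 and 121 CPM.

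**Figure D5:**
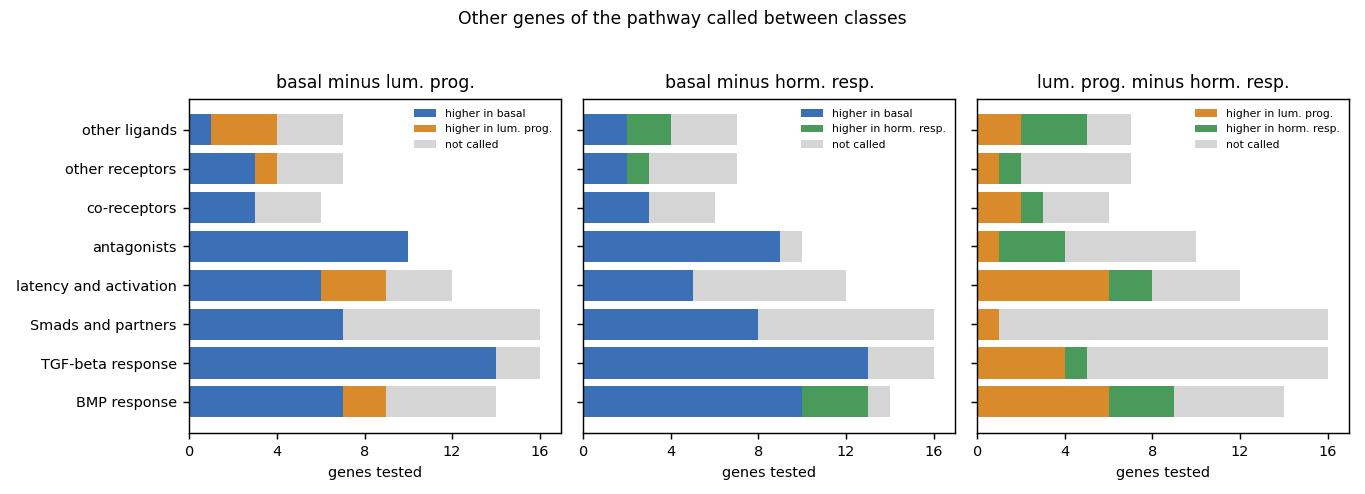
Number of tested genes of 8 other pathway lists that were called in each direction or not called, per comparison. All 10 antagonists tested and 14 of 16 TGF-beta response genes are higher in basal-like than in LP-like cells, and most Smads and partners are not called between the luminal classes. Some genes are on several lists.

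Of 7 other ligands tested, 1 was higher and 3 lower in basal-like than in LP-like cells, beside 17.3% and 14.0% of all genes (median 0.74 beside −0.08). Against HR-like cells 2 were higher and 2 lower in basal-like cells, beside 20.7% and 15.2% (median 0.37 beside −0.0022), and 2 higher and 3 lower in LP-like cells, beside 14.1% and 10.4% (median 0.39 beside 0.06). With so few ligands, the shares higher in basal-like cells were near those of all genes. Inhbb, the activin beta B subunit, averaged 9.61 ± 2.21, 245 ± 135 and 119 ± 4.72 CPM in basal-like, LP-like and HR-like cells (SD, n = 3). Inhba, the beta A subunit, averaged 0.949, 0.256 and 8.57 CPM, Gdf11 6.93, 0.596 and 2.67 CPM, and Gdf5 had 6, 68 and 2 UMIs. Bmp2 had 61 and 265 UMIs in basal-like and LP-like cells and 0 in HR-like cells, so that it was at least 8.57-fold and at least 27.4-fold higher there against a floor of 3 counts over the HR-like group. Library 1 held 29 of the basal-like and 170 of the LP-like UMIs, and its Bmp2 levels stood apart, at 9.04, 1.61 and 2.11 CPM in basal-like and 16.7, 3.90 and 6.53 CPM in LP-like cells of the 3 libraries. Without library 1 the differences against the floor were 4.59-fold and 13.1-fold, and without library 3 the basal-like one was 5.46-fold. Without library 2, which held 25 of the LP-like UMIs, the LP-like one was 19.0-fold. Leaving out any library also shrinks the HR-like total behind the floor, which by itself lowers such a bound.

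Of 7 other receptors tested, 3 were higher and 1 lower in basal-like than in LP-like cells, beside 17.3% and 14.0% of all genes (median 0.66 beside −0.08). Against HR-like cells 2 were higher and 1 lower in basal-like cells, beside 20.7% and 15.2% (median 0.75 beside −0.0022), and 1 higher and 1 lower in LP-like cells, beside 14.1% and 10.4% (median −0.21 beside 0.06), which is near the shares of all genes. Bmpr1b, a type I receptor for BMPs like Bmpr1a, averaged 0.891, 0.557 and 16.8 CPM in basal-like, LP-like and HR-like cells. It differed between classes by log2 −4.18 ± 0.35 between basal-like and HR-like cells (adjusted p = 8.0e-06) and −4.76 ± 0.78 between LP-like and HR-like cells (adjusted p = 8.0e-06). The activin receptor Acvr2a averaged 39.7, 9.70 and 5.18 CPM, the type I receptor Acvr1 39.9, 15.7 and 23.7 CPM and Acvrl1, known from endothelium, 12.7, 27.4 and 5.18 CPM. Of 6 co-receptors tested, 3 were higher and 0 lower in basal-like than in LP-like cells, beside 17.3% and 14.0% of all genes (median 1.31), and 3 and 0 in basal-like against HR-like cells, beside 20.7% and 15.2% (median 1.38). In LP-like against HR-like cells 2 were higher and 1 lower, beside 14.1% and 10.4% (median 1.40). Bambi, a decoy receptor, averaged 72.4, 19.1 and 1.70 CPM, Eng (endoglin) 23.9, 3.03 and 27.4 CPM and Rgma (a BMP co-receptor) 19.97, 31.1 and 6.11 CPM. Cd109 had 83 and 6 UMIs in basal-like and LP-like cells and 0 in HR-like cells, at least 11.7-fold higher in basal-like cells against the same floor and at least 5.34-fold without library 3.

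The genes whose log2 CPM followed each of the 10 most closely over the 9 sums were sought among 7859 genes with at least 20 CPM in a class; the points share libraries and classes, so the Pearson correlations are descriptions. Bmp7 was followed by Moxd1 (r = 0.997) and Ism1 (0.995), and Tgfbr3 by Gas1 (0.997) and Apobec1 (0.996). Tgfb3 was followed by Acsl1 (0.991) and Plscr1 (0.987), and Tgfb2 by Npm1 (0.990) and Epb41l4a (0.990). Bmp3 was followed by Ndufs5 (0.993) and Folr2 (0.992), and Tgfbr2 by Arl2 (0.990) and Tapt1 (0.986). Tgfbr1 was followed by Mepce (0.988) and Icam1 (0.988), Bmp4 by Gatad2b (0.965) and Mgat4b (0.962), Tgfb1 by Uba3 (0.944) and Hdgfrp2 (0.934), and Bmpr1a by Rgp1 (0.920) and Dnlz (0.903). The closest match was weakest for Bmpr1a and Tgfb1. A correlation takes no account of the size of a difference. In basal-like, LP-like and HR-like cells Ndufs5 averaged 159, 191 and 388 CPM, Npm1 924, 1097 and 542 CPM and Gatad2b 155, 107 and 115 CPM. Other matches were more confined to a class, such as Folr2 (0.441, 1.08 and 36.0 CPM) and Moxd1 (119, 2.46 and 3.87 CPM).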

How the data were processed

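The authors deposited raw UMI counts per gene and barcode for 3 libraries of sorted mammary epithelial cells, made with Cell Ranger 2.1.0 on mm10, per the submitters' processing notes. Barcodes with at least 500 genes and under 10% mitochondrial UMIs were kept, and the cells with the highest Scrublet scores (scanpy 1.11.5) were removed, at 0.8% per 1000 barcodes; of 26845 barcodes, 24352 remained. Classes were set from 11 marker genes, which were left out of the tests. Counts were summed per library and class into 9 sums and tested with edgeR 4.0.16 (quasi-likelihood test, TMM, filterByExpr, R 4.3.3) with the library as a block; p-values were adjusted over 12666 genes by Benjamini-Hochberg. The block rests on classes coming from the same library: deviations of sums of the same library correlated at 0.186 to 0.407, those of different libraries at −0.331 to 0.066. Deviations were taken from the mean of the libraries of a class, so the lower values between different libraries partly follow from the same-library ones. The SD beside a log2 fold change is over within-library ratios (prior count 2). Levels of subsets, markers and shares against a source class are CPM of total UMIs, without TMM. Thinning drew a fixed number of UMIs per cell with seed 1. Poisson intervals cover counting error only. Libraries of a class differed by more than sampling noise, so none was merged as a repeat deposit of another; this does not show that they are independent samples.

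The 10 genes, the pathway lists and the markers were chosen with earlier results of these data known. Named genes are the 10 genes, the 2 called genes with the largest log2 fold change per list, comparison and direction, and the 2 genes nearest to each of the 10 by correlation. Levels of Ltbp2, Ltbp3, Id1 and Id2 were added beside genes of the same families. Alternatives were DESeq2 1.42.0 and its size factors, no filter, no block, leaving out each library, keeping doublets, a stricter class rule (10 UMIs and 5 times), leaving out cells of other types, and thinning. Folds against the floor without each library were added after seeing the data. Columns of other samples left unused numbered 0. The test was tried on simulated counts first.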

Additional observations from a re-analysis of the deposited data

How the results depend on the processing

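Of 318 recomputed differences of the 10 genes, 294 kept their direction and their side of the call, and 22 of 30 differences kept both under every alternative run. The others were small differences or low counts; the cause was not tested. Basal-like minus LP-like, Bmp3 became 0.73 with sums thinned to equal totals. Bmp4 ranged over 2.24 to 3.16 when leaving out a library, highest without library 1, with an adjusted p of 0.053 without library 2. Tgfb1 lost its call with no replicate block (1.13, adjusted p = 0.060) and under the stricter class rule (0.99), and ranged over 0.84 to 1.30 when leaving out a library. Bmpr1a was 0.084 with other size factors, 0.085 with DESeq2, 0.00066 with no filter and 0.063 with thinned sums, and −0.12 to 0.16 when leaving out a library. Basal-like minus HR-like, Bmp4 was 1.83 with DESeq2 (adjusted p = 0.070), 1.74 with no filter (0.053) and 1.20 with doublets kept (0.14), and 1.58 to 2.19 when leaving out a library. Tgfb3 passed the fold at 1.05 with other size factors, 1.02 with DESeq2, 1.02 with no filter and 1.03 with thinned sums, and ranged over 0.75 to 1.33. Bmpr1a was −0.0081 with doublets kept and −0.0087 under the stricter rule, and −0.0051 to 0.062 when leaving out a library. LP-like minus HR-like, Bmpr1a was −0.032 with thinned sums and −0.17 to 0.18 when leaving out a library. The replicate block changed no other call of the 10 genes; without it 3784, 4352 and 2871 genes were called in the 3 comparisons. Counts of genes called stayed within 1.5 times under every alternative run. Other size factors and DESeq2 moved the median of all genes by 0.10 between basal-like and LP-like cells, and no filter by 0.17 between basal-like and HR-like cells. Bmp4 was not tested under thinned sums, the stricter rule, without library 3 or without cells of other types, where it did not pass the filter. When leaving out a library, which was added after seeing the data, the folds against the floor lay at 4.59 to 7.21 and 13.1 to 19.0 for Bmp2 in basal-like and LP-like cells and at 5.34 to 9.67 for Cd109. The smaller HR-like total behind the floor by itself lowers those folds. Thinning cells to 1000 UMIs moved 25 of 30 shares of cells by more than their SD. Depth limits the genes under 10 UMIs in a class, such as Bmp4 in HR-like cells with 7.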
